A study of Mus musculus with 56 samples.

Results

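The tubulin genes described here are the 10 genes Tubb2a, Tubb2b, Tubb4b, Tubb5 and Tubb6, which encode beta-tubulins, and Tuba1a, Tuba1b, Tuba1c, Tuba4a and Tuba8, which encode alpha-tubulins, out of 23932 genes analysed in mouse liver. They were chosen by symbol from a list drawn up when rhythms of these libraries, the strong one of Tubb2a among them, were already known. Their rhythms and phases are therefore given below as a description and without a test. Liver RNA came from C57BL/6J female mice of 9 weeks, kept in 12 h of light and 12 h of dark. For 7 days their food was restricted either to the daytime (DRF) or to the nighttime (NRF), and the NRF groups served as the controls. In each regimen 4 libraries were made at each of ZT0, 4, 8, 12, 16, 20 and 24, where ZT is zeitgeber time, counted in hours from lights on, giving 14 groups and 56 libraries in all. No genotype or drug separated the groups, and the labels do not say whether each library was 1 mouse, so every spread and p-value below is that between libraries. Since DRF mice ate in the light and NRF mice in the dark, the feeding half-day was taken as ZT0 to ZT12 under DRF and as ZT12 to ZT24 under NRF.

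Microtubules are hollow polymers of alpha- and beta-tubulin heterodimers. In hepatocytes they carry secretory vesicles, lipoprotein particles and bile canalicular transporters, and they shape the spindle when a cell divides. Each tubulin subunit is folded by prefoldin and the chaperonin CCT, paired by cofactors Tbca to Tbce, polymerized from gamma-tubulin ring complexes, and then modified on its acidic tail. Tubulin mRNAs are also subject to autoregulation: when free heterodimers accumulate, the factor TTC5 recognizes the start of the nascent tubulin chain on the ribosome and, through SCAPER and the CCR4-NOT deadenylase, the mRNA is degraded.

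The coding sequences show both how alike these genes are and where their mRNAs can be told apart. The first 30 coding bases of 9 members are printed from the GENCODE transcripts, since these bases encode the chain start read in autoregulation, with the first 4 codons in capitals.
Tubb2a: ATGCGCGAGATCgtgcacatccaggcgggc
Tubb2b: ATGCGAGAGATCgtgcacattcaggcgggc
Tubb4b: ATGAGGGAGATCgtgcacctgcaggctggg
Tubb5: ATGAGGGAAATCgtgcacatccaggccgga
Tuba1a: ATGCGTGAGTGCatctccatccatgttggc
Tuba1b: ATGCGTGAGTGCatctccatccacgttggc
Tuba1c: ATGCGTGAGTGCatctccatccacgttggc
Tuba4a: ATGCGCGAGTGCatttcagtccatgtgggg
Tuba8: ATGAGGGAATGCatatcggtccatgtgggt
In the 5 alpha-tubulin genes the first exon ends after the first 3 of these bases, the start codon, whereas in the 4 beta-tubulin genes shown all 30 bases lie within 1 exon. Tuba1b and Tuba1c did not differ in these 30 bases, and Tubb2a and Tubb2b differed at 2 of them. The last 60 coding bases, stop codon included, encode the acidic tail, and are shown for the neighbouring near copies Tubb2a and Tubb2b.
Tubb2a: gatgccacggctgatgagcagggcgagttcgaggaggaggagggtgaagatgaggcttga
Tubb2b: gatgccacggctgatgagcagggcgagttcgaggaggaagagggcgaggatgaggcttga
Tubb2a and Tubb2b differed at 3 of these 60 bases, and none of the 3 changes the encoded amino acid, so both encode the same tail. Over the whole coding sequence, Tubb2a and Tubb2b were 96.5% identical, Tuba1a and Tuba1b 98.3%, and Tuba1b and Tuba1c 97.9%. The other pairs within a family shared 78.8% to 85.2% of aligned bases, apart from Tuba1a and Tuba1c at 97.1%.

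On GRCm38, Tubb2a (ENSMUSG00000058672) lies on chromosome 13 from 34074274 to 34078007 and Tubb2b (ENSMUSG00000045136) beside it from 34126748 to 34130466, both on the minus strand. Tuba1b (chromosome 15, 98931425 to 98934565), Tuba1a (98949837 to 98953703) and Tuba1c (99029891 to 99038110) form a second cluster. Tubb4b lies on chromosome 2 (25222160 to 25224702), Tubb5 on chromosome 17 (35833921 to 35838306), Tuba4a on chromosome 1 (75214228 to 75219865), Tuba8 on chromosome 6 (121210696 to 121226854) and Tubb6 on chromosome 18.

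Values are given as scaled counts, whole counts recovered from the deposited gene scores and divided by a library factor of 304 to 723 counts per unit. Among the members, recovered counts ran from 0 for Tubb2b to 75980 for Tuba1c. Scaled totals of the libraries ran from 818570 to 1018990. Summed hepatocyte markers (5 of 6 analysed) stood at 104959 to 128548 in the group means, against 26.4 to 35.2 for 6 cholangiocyte and 18.9 to 29.5 for 6 T and B cell markers. Between these lay the sums of 6 markers each for stellate cells (637 to 798), sinusoidal endothelial cells (376 to 479) and Kupffer cells (584 to 893). The sums of 6 platelet and red cell markers (406 to 910) and of 6 cycling cell markers (3.81 to 14.04) varied more between groups. At DRF ZT0 and ZT12 these sums were 896 and 706 for the platelet and red cell markers and 7.54 and 6.08 for the cycling cell markers; under NRF they were 430 and 406, and 5.53 and 6.46, and their part in the results was not tested. In a bulk tissue, fewer cells of a type and less RNA per cell cannot be told apart.

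Near copies limit the gene-level values. Of the windows of 150 bases, the read length, along the Tubb2a mRNA, 27.9% occurred unchanged in Tubb2b. The shares of windows found in some other gene were 54.7% for Tuba1a, 57.9% for Tuba1b and 46.7% for Tuba1c. For Tubb4b the share was 16.8%, all of it in the processed pseudogene Tubb4b-ps1. Tubb5, Tubb6, Tuba4a and Tuba8 had no such window. Gm49450, a gene model that runs through Tuba1a and Tuba1b on the same strand, was listed below 0.02 in 23 libraries and at 29.6 in one, and whether reads moved between these gene models was not tested. Stk16 overlaps 37.3% of Tuba4a exon bases on the opposite strand, and Gm15856 overlaps 16.3% of Tuba8 exon bases, also on the opposite strand. The libraries were strand-specific, but whether counting used strand is not given in the sources used here.

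Tubb2a, a major beta-tubulin of brain that liver also expresses, had the largest fitted amplitude of the 10 on the scale of log2(scaled counts + 1). On that scale the added 1 lowers the amplitude of Tubb2b, whose lowest groups stood below 1. Under DRF the 4 libraries at ZT24 read 4.51, 4.59, 5.47 and 6.75 scaled counts of Tubb2a, and those at ZT12 read 70.2, 71.6, 73.8 and 74.4. Under NRF the libraries at ZT12 read 3.31, 3.75, 4.25 and 4.43, and those at ZT24 read 72.0, 81.6, 86.5 and 113. The high and low libraries of each regimen lay far apart, and the clock times at which they occurred were exchanged between regimens. Group means rose 13.6-fold from ZT24 (5.33 ± 1.04, SD, n = 4) to ZT12 (72.5 ± 1.96) under DRF and 22.4-fold from ZT12 (3.94 ± 0.507) to ZT24 (88.2 ± 17.4) under NRF. The rise under DRF was gradual, with means of 6.05 ± 0.882 at ZT0, 32.2 ± 5.03 at ZT4 and 62.1 ± 8.93 at ZT8, and the fall was steep, from 50.1 ± 5.79 at ZT16 to 10.5 ± 1.16 at ZT20. Under NRF the rise ran from 33.2 ± 10.5 at ZT16 to 86.7 ± 15.9 at ZT20, with 85.4 ± 16.2 at ZT0, and the fall from 45.7 ± 12.1 at ZT4 to 8.17 ± 2.23 at ZT8. Replicates thus spread more at the NRF peak than at the DRF peak.

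**Figure D1:**
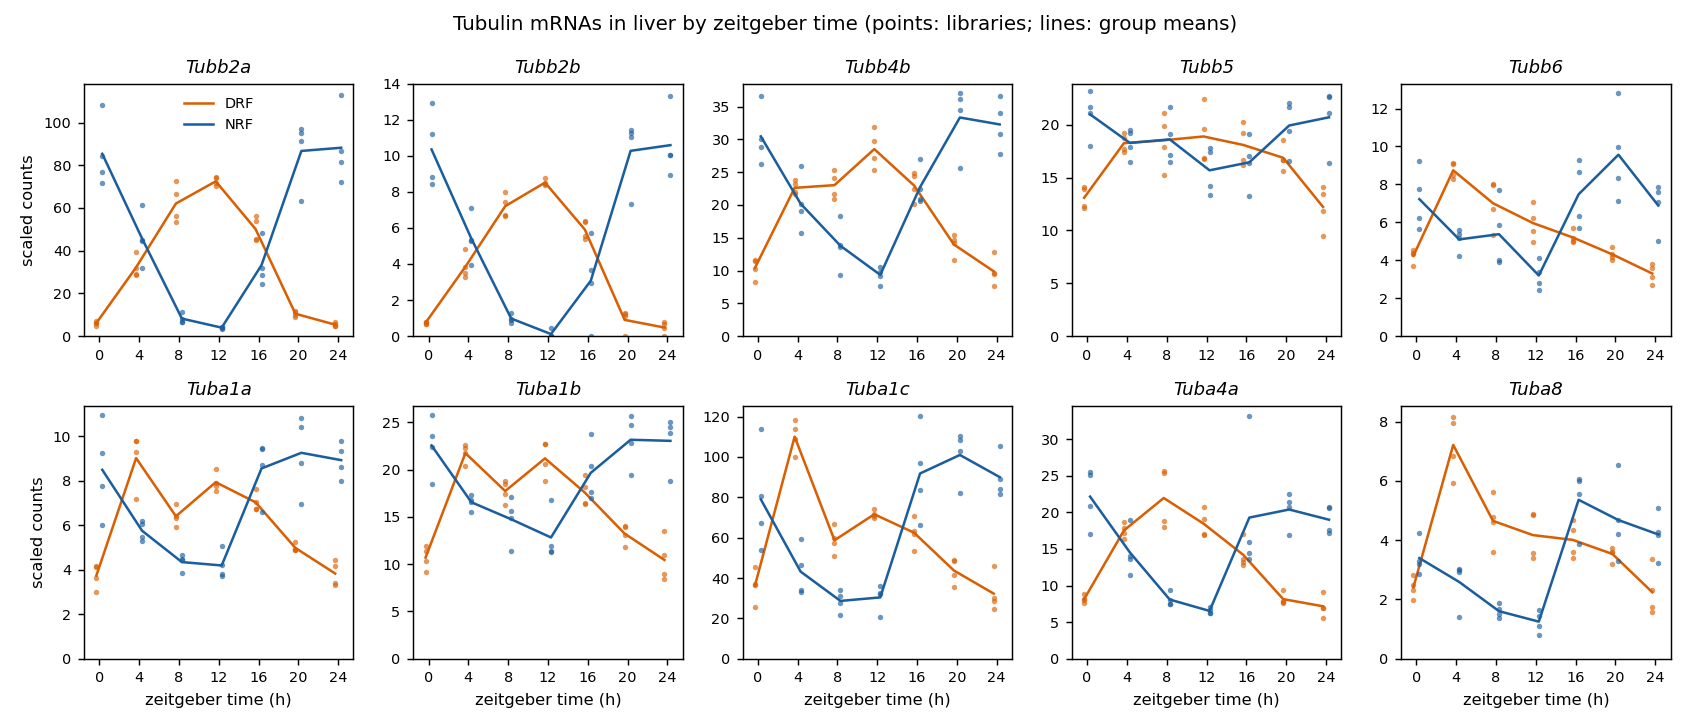
Scaled counts (y axis, linear) of the 10 tubulin genes against zeitgeber time in hours (x axis) under DRF (orange) and NRF (blue), with a point for each library and a line through the group means. Tubb2a means cross from 72.5 under DRF to 3.94 under NRF at ZT12, whereas Tubb5 means stay between 12.2 and 21.0.

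Tubb2b, the neighbouring near copy of Tubb2a and likewise a neuronal beta-tubulin, followed the same course at a lower level. Its libraries at DRF ZT12 read 8.38, 8.42, 8.47 and 8.79, and those at DRF ZT0 read 0.655, 0.693, 0.787 and 0.805. At NRF ZT24 they read 8.95, 10.03, 10.06 and 13.3, and at NRF ZT12 they read 0, 0, 0 and 0.440. In 4 libraries Tubb2b was listed at 0 and in 2 more at 4 recovered counts, although in one of these, NRF ZT16 replicate 3, the other 3 libraries of the group read 2.94, 3.64 and 5.71 and Tubb2a stood at 28.4. A listed 0 may therefore be a failed assignment, and no fold is given against NRF ZT12. Of 13283 genes with a median over 1 scaled count, 86 were listed at 0 in some library. In the other 50 libraries the ratio of Tubb2a to Tubb2b stayed between 7.41 and 10.01, with a median of 8.44, whether the pair was high or low. The sum of both genes rose 13.96-fold under DRF (5.803 to 81.0) and 24.4-fold under NRF (4.05 to 98.8). This sum does not depend on how reads were split between the genes if each read was counted once, which was not tested. Its lowest NRF value, at ZT12, includes the listed 0 values of Tubb2b.

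Tubb4b, a beta-tubulin made in most tissues, moved through a narrower range. Its libraries at DRF ZT24 read 7.66, 9.45, 9.61 and 12.8 and those at DRF ZT12 read 25.4, 27.1, 29.7 and 31.9, a 2.89-fold difference of the means. At NRF ZT12 they read 7.70, 9.23, 9.81 and 10.6 and at NRF ZT20 they read 25.6, 34.5, 36.2 and 37.0, a 3.57-fold difference. High and low groups did not overlap in either regimen. The pseudogene Tubb4b-ps1, with which it shares sequence, had group means of 0.240 to 0.746 under DRF and 0.266 to 0.962 under NRF, lowest at ZT24 and ZT12 and highest at ZT12 and ZT24.

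Tubb5, the beta-tubulin common to most cell types, was the flattest member. Its libraries at DRF ZT24 read 9.50, 11.8, 13.4 and 14.1 and those at DRF ZT12 read 16.8, 16.8, 19.6 and 22.4. Under NRF the lowest group, ZT12, read 13.3, 14.2, 17.4 and 17.8, and the highest, ZT0, read 17.99, 21.1, 21.7 and 23.2, so that these groups nearly met. The means differed 1.55-fold under DRF and 1.34-fold under NRF.

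Tubb6, a beta-tubulin of many non-neuronal cells, peaked earlier after feeding began than the other beta-tubulins. At DRF ZT4 it read 8.30, 8.47, 9.08 and 9.12 and at DRF ZT24 it read 2.69, 3.09, 3.59 and 3.81. At NRF ZT20 it read 7.14, 8.35, 9.97 and 12.8 and at NRF ZT12 it read 2.46, 2.82, 3.39 and 4.10. Its highest and lowest group means differed 2.65-fold under DRF and 2.995-fold under NRF.

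Among the alpha-tubulins, Tuba1c was the most abundant. Its libraries at DRF ZT4 read 99.8, 109, 114 and 118, and by ZT8 they had dropped to 51.1, 57.2, 59.9998 and 66.5 before a second, lower level of 69.8, 70.6, 71.6 and 74.2 at ZT12. This sharp early maximum was not seen under NRF, where the mean of ZT16 was 91.8 ± 22.7 (SD, n = 4), that of ZT20 100.96 ± 12.96 and that of ZT24 90.0 ± 10.8. The lowest groups were DRF ZT24, with 24.5, 28.7, 30.1 and 45.8, and NRF ZT8, with 21.4, 27.7, 31.2 and 34.3. Highest and lowest means differed 3.41-fold under DRF and 3.52-fold under NRF.

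Tuba1a and Tuba1b, the near copies of Tuba1c, showed the same early maximum under DRF. Tuba1a means under DRF were 3.73 ± 0.561 at ZT0, 9.02 ± 1.24 at ZT4, 6.41 ± 0.408 at ZT8 and 7.94 ± 0.434 at ZT12. Tuba1b means at the same times were 10.7 ± 1.23, 21.7 ± 0.988, 17.7 ± 1.17 and 21.2 ± 1.87. Both thus held a dip at ZT8 between 2 higher times, like Tuba1c. Under NRF, Tuba1a rose from 4.20 ± 0.616 at ZT12 to 9.26 ± 1.75 at ZT20 and Tuba1b from 12.8 ± 2.64 to 23.2 ± 2.79. The sum of the 3 genes, which is less exposed to reads shared among them, rose 3.03-fold under DRF (46.5 to 140.8) and 2.81-fold under NRF (47.4 to 133.4).

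Tuba4a, an alpha-tubulin whose coding sequence lacks the tyrosine that ends most alpha-tubulins, had broad maxima. At DRF ZT8 it read 18.02, 18.8, 25.3 and 25.7, and at DRF ZT24 it read 5.63, 6.87, 7.00 and 9.18. At NRF ZT0 it read 17.0, 20.9, 25.2 and 25.6, and at NRF ZT12 it read 6.22, 6.25, 6.63 and 7.04. The means differed 3.06-fold under DRF and 3.39-fold under NRF. A single library, NRF ZT16 replicate 4, read 33.1 where its group otherwise read 13.6, 14.5 and 15.9.

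Tuba8, the most divergent alpha-tubulin of the 5, was the lowest-expressed of them. At DRF ZT4 it read 5.93, 6.84, 7.94 and 8.15 and at DRF ZT24 it read 1.57, 1.74, 2.31 and 3.36. At NRF ZT16 it read 3.86, 5.54, 5.99 and 6.06, and at NRF ZT12 it read 0.811, 1.12, 1.43 and 1.65. In both regimens the maximum came at the first time sampled after feeding began, and the means differed 3.21-fold under DRF and 4.28-fold under NRF.

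A 24-h cosine was fitted to log2(scaled counts + 1) in each regimen, with its peak time as the phase and the distance from mean to peak as the amplitude. By limma with Benjamini-Hochberg adjustment, 35.4% of all genes had a rhythm under DRF, 43.6% had one under NRF and 38.8% had rhythms that differed between the regimens, while the 10 members all passed in each case. At single times, 42.7% of all genes and again the 10 members differed somewhere between DRF and NRF. Since the members were chosen with such rhythms known, nothing is read from these counts. Amplitudes were 1.85 ± 0.117 (SE) under DRF and 2.08 ± 0.118 under NRF for Tubb2a, 0.68 ± 0.0703 and 0.81 ± 0.0719 for Tubb4b, and 0.25 ± 0.0480 and 0.17 ± 0.0478 for Tubb5. For Tuba1c they were 0.54 ± 0.114 under DRF and 1.02 ± 0.117 under NRF, and for Tuba4a they were 0.76 ± 0.0759 and 0.78 ± 0.0756. The highest and lowest group means of Tuba1c nevertheless differed by similar folds, 3.41 under DRF and 3.52 under NRF. Its DRF course, with a maximum at ZT4 and a dip at ZT8, is described by a single cosine only in part. The median amplitude over all genes was 0.09 under DRF and 0.11 under NRF. The added 1 draws amplitudes of genes with low levels toward 0, and 13283 of the 23932 genes had a median over 1 scaled count. These medians are therefore not matched to the members by level.

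Phases of all 10 members were 10.5 to 11.8 h apart between regimens. Among all genes, 5620 had a rhythm in both regimens, and 50.6% of these had phases 8 to 12 h apart, with a median shift of 8.08 h. Tubb2a peaked at ZT10.9 ± 0.268 (SE) under DRF and ZT22.5 ± 0.236 under NRF, a shift of 11.6 ± 0.357 h, and Tubb4b at ZT10.9 ± 0.439 and ZT22.0 ± 0.359, a shift of 11.1 ± 0.567 h. Tuba4a shifted by 11.8 ± 0.552 h, Tuba8 by 11.6 ± 1.13 h and Tuba1a, the smallest shift, by 10.5 ± 0.826 h. Counted from the start of the feeding half-day, fitted peaks fell at 8.27 to 11.4 h under DRF and at 8.28 to 12.4 h under NRF. The latest in both was Tubb5 (SE 0.833 h and 1.18 h), followed by Tubb2a, Tubb2b and Tubb4b at 9.996 to 10.96 h. Tuba8, Tubb6 and Tuba1c came earliest, at 8.27 to 9.26 h, except that Tuba1a (8.81 h) preceded Tubb6 (8.88 h) under NRF. The standard error bars of neighbours in this order overlapped. Under DRF the highest group means of Tuba8, Tubb6, Tuba1c, Tuba1a and Tuba1b stood at ZT4, ahead of their fitted peaks. A 24-h cosine thus describes these courses in part, and a fitted peak is not the time of the highest level. Tubb2b shifted by 11.7 ± 0.440 h in all libraries and by 11.5 h without the 6 libraries at or near 0, a refit chosen after seeing the data.

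**Figure D2:**
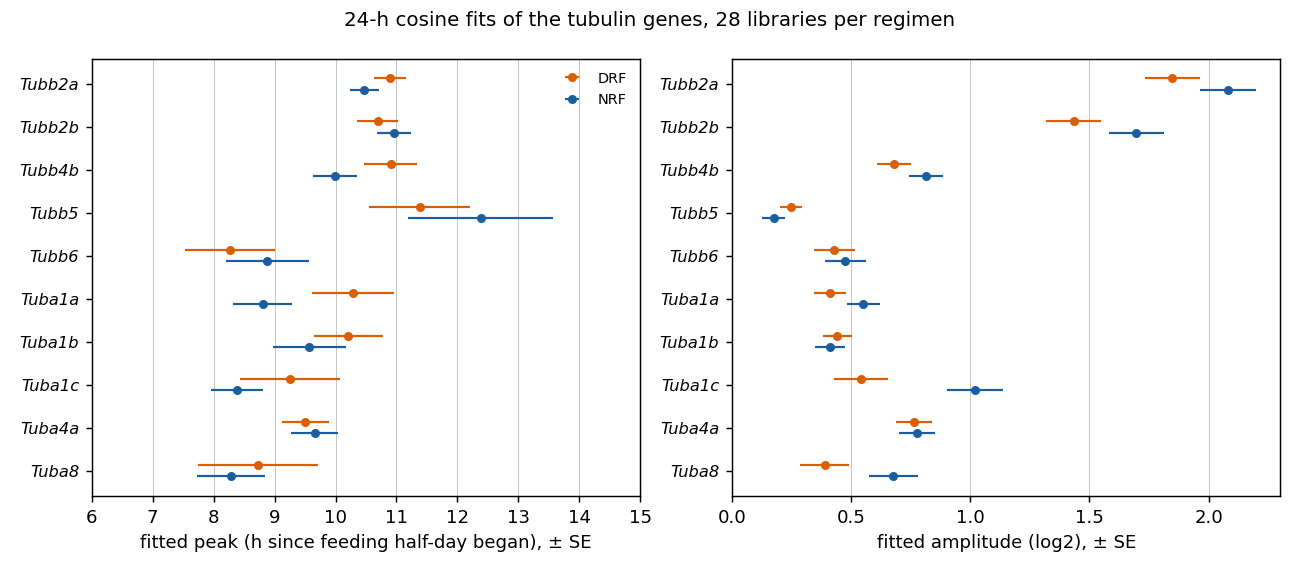
Left, fitted peak in hours since the feeding half-day began, and right, fitted amplitude on the log2 scale, for the 10 tubulin genes under DRF (orange) and NRF (blue); points are fits over 28 libraries and bars are standard errors. Peaks of Tubb2a lie at 10.9 h and 10.5 h, and its amplitudes of 1.85 and 2.08 exceed those of the other members.

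When groups were matched by hours into feeding in place of clock time, the levels of the regimens lay closer together. A difference at some matched time was called for 39.1% of all genes and for 4 of the 10 members, Tubb2a, Tuba1a, Tuba1c and Tuba8. The member count was 8 with the values as deposited and 7 without any of 4 single NRF libraries (ZT8 replicate 3, ZT16 replicate 4, ZT20 replicate 1 or ZT24 replicate 2). The share of all genes called in those settings is not given here, so nothing is read from the change in count. At 4 h into feeding, Tubb2a read 32.2 ± 5.03 (SD, n = 4) under DRF and 33.2 ± 10.5 under NRF, and Tubb4b read 22.6 ± 1.02 and 22.7 ± 2.95. At 8 h into feeding, DRF was the lower for most members: Tuba1c read 58.7 ± 6.39 under DRF against 100.96 ± 12.96 under NRF, without overlap (log2 difference -0.77 ± 0.196, SE), and Tubb4b read 23.0 ± 2.08 against 33.3 ± 5.25, also without overlap. At 8 h the log2 difference was negative for 8 of the 10 members, with a median of -0.41, and Tuba4a (0.09 ± 0.162) and Tuba8 (0.01 ± 0.165) were the exceptions. At 12 h, with DRF ZT12 set against NRF ZT24, all 10 differences were negative, with a median of -0.16. NRF ZT0 also lies at 12 h, and against it the sign turned for Tuba8, which read 4.17 ± 0.804 at DRF ZT12 and 3.40 ± 0.587 at NRF ZT0. The share of all genes lower under DRF at 8 h and 12 h is not given here, and near copies share sequence. These counts of signs are therefore a description. In the fasting half-day the order turned for some genes: 8 h into the fast, Tuba1c read 43.7 ± 6.28 under DRF and 28.6 ± 5.52 under NRF, and Tuba8 read 3.53 ± 0.231 and 1.61 ± 0.213, neither with overlap. Tuba4a and Tubb5 had log2 differences of -0.04 to 0.28 and -0.24 to 0.15 over the matched times. The largest for Tuba4a was at 0 h, where it read 8.13 ± 0.505 under DRF and 6.53 ± 0.387 under NRF without overlap.

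**Figure D3:**
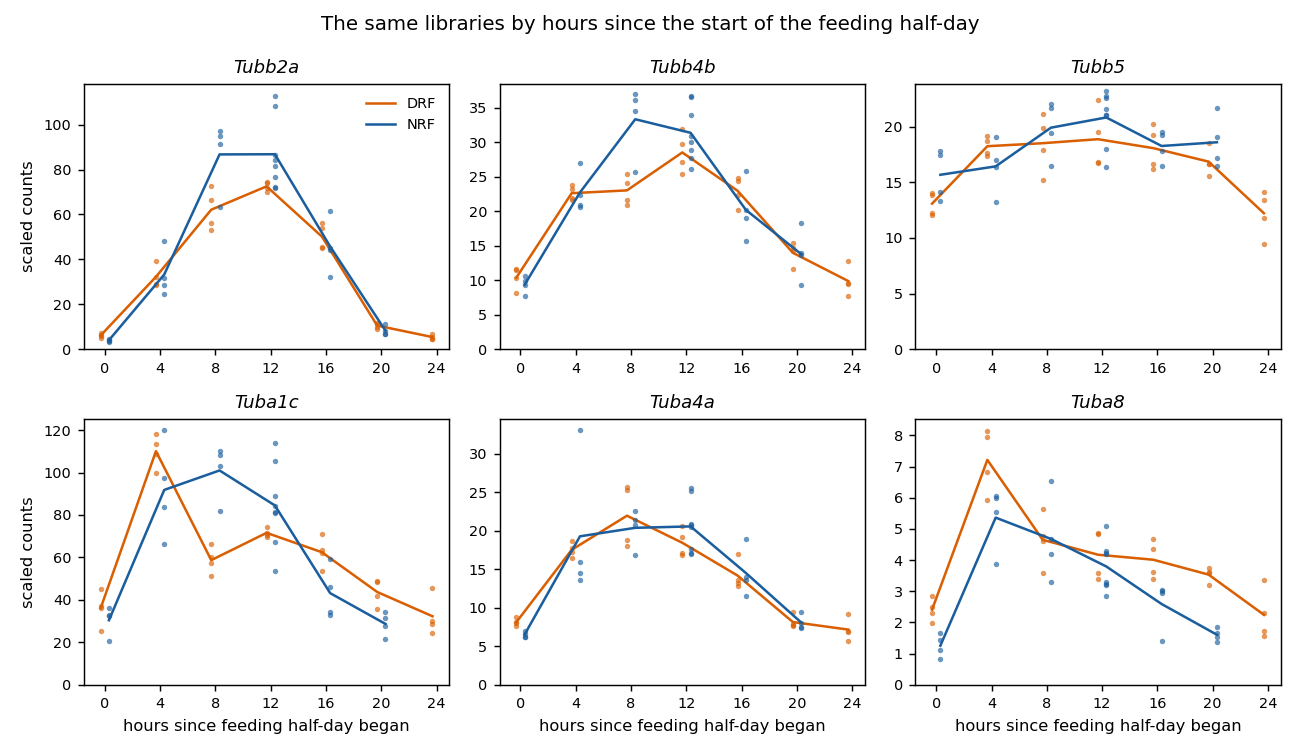
Scaled counts (y axis, linear) of 6 tubulin genes against hours since the feeding half-day began (x axis) under DRF (orange) and NRF (blue); points are libraries, lines are group means, and ZT0 and ZT24 of NRF, both at 12 h, share a mean. Tubb2a curves nearly coincide at 4 h (32.2 and 33.2), while Tuba1c curves part at 8 h (58.7 and 100.96).

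Daily means and the repeat of the day's first time are contrasts apart from the rhythm. Of all genes 6.75% had a daily mean that differed between regimens, and of the members Tuba8 did: its fitted mean was 0.35 ± 0.101 (SE) higher on the log2 scale under DRF (adjusted p = 0.0227, limma over all genes). Over 65 alternative fits this difference stayed between 0.29 and 0.48 with an adjusted p of 0.0083 to 0.0413. By hours into feeding, Tuba8 was higher under DRF by 0.61 on the log2 scale at 0 h and 0.38 at 4 h, and by 0.50 and 0.80 at 4 h and 8 h into the fast. At 8 h into feeding it read 4.65 ± 0.835 (SD, n = 4) under DRF and 4.68 ± 1.36 under NRF. Daily mean differences of the other members lay between -0.13 and 0.07 and did not pass. ZT24 against ZT0, the same clock time, was called for 3.25% of all genes under DRF and 8.29% under NRF, and for 0 members in either by limma (0 also at an unadjusted p under 0.05), where log2 differences ran from -0.29 ± 0.160 (Tubb6 under DRF) to 0.24 ± 0.165 (Tuba8 under NRF).

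Levels per kilobase of exon let the genes be compared with each other. Tuba1c and Tubb2a stood highest, with means over 28 libraries of 25.9 ± 11.3 (SD) and 21.2 ± 16.6 scaled counts per kilobase under DRF and 29.0 ± 14.2 and 31.2 ± 22.7 under NRF, and the spread over the day is wider than the difference between them. Tubb4b (8.98 ± 3.40 and 11.1 ± 4.54) and Tuba1b (8.58 ± 2.46 and 10.1 ± 2.47) came next, and their order too lay within the spread. Below them Tubb5 (4.98 ± 0.928 and 5.61 ± 0.851) exceeded Tuba4a, Tuba1a and Tubb6 (3.15 to 3.69 under DRF and 3.64 to 4.25 under NRF), which did not separate. Tuba8 (1.78 ± 0.748 and 1.46 ± 0.722) and Tubb2b (1.72 ± 1.39 and 2.54 ± 1.996) were lowest.

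Summed over each family, alpha- and beta-tubulin mRNA rose together in the first hours of feeding, and they then parted in both regimens. Beta rose further in both, while alpha fell under DRF and moved within its spread under NRF. The 5 alpha-tubulin genes rose from 26.8 ± 4.73 scaled counts per kilobase at DRF ZT0 to 72.6 ± 4.78 at ZT4 and stood at 46.7 ± 4.29 at ZT8. The 5 beta-tubulin genes rose from 15.4 ± 1.03 to 43.0 ± 3.55 over the same first 4 h, and went on to 62.3 ± 7.68 at ZT8 and 71.5 ± 3.01 at ZT12. Under NRF both sums were highest at ZT20: alpha rose from 24.8 ± 4.23 at ZT12 to 62.9 ± 13.95 at ZT16 and 69.2 ± 9.17 at ZT20, and beta from 13.5 ± 0.761 to 42.1 ± 10.01 and 85.8 ± 14.9. The ratio of alpha to beta mRNA was 1.69 ± 0.0976 at DRF ZT4 and 1.504 ± 0.126 at NRF ZT16. At the next time sampled it was 0.75 ± 0.0474 (DRF ZT8) and 0.81 ± 0.0457 (NRF ZT20). Over the feeding half-day it fell from 1.73 ± 0.199 at DRF ZT0 to 0.75 ± 0.0245 at DRF ZT12. Under NRF it fell from 1.84 ± 0.302 at ZT12 to 0.75 ± 0.0489 at ZT24, and it was 0.70 ± 0.0664 at NRF ZT0. Tubb2a supplied 24.3% ± 2.07 of the beta sum at DRF ZT0 and 63.1% ± 2.29 at DRF ZT12, and 18.1% ± 2.20 at NRF ZT12 and 64.1% ± 1.30 at NRF ZT0. The share of Tuba1c in the alpha sum varied less, from 54.9% ± 1.79 at DRF ZT8 to 66.2% ± 0.774 at DRF ZT4 and from 48.5% ± 2.24 at NRF ZT8 to 63.8% ± 0.619 at NRF ZT20.

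**Figure D4:**
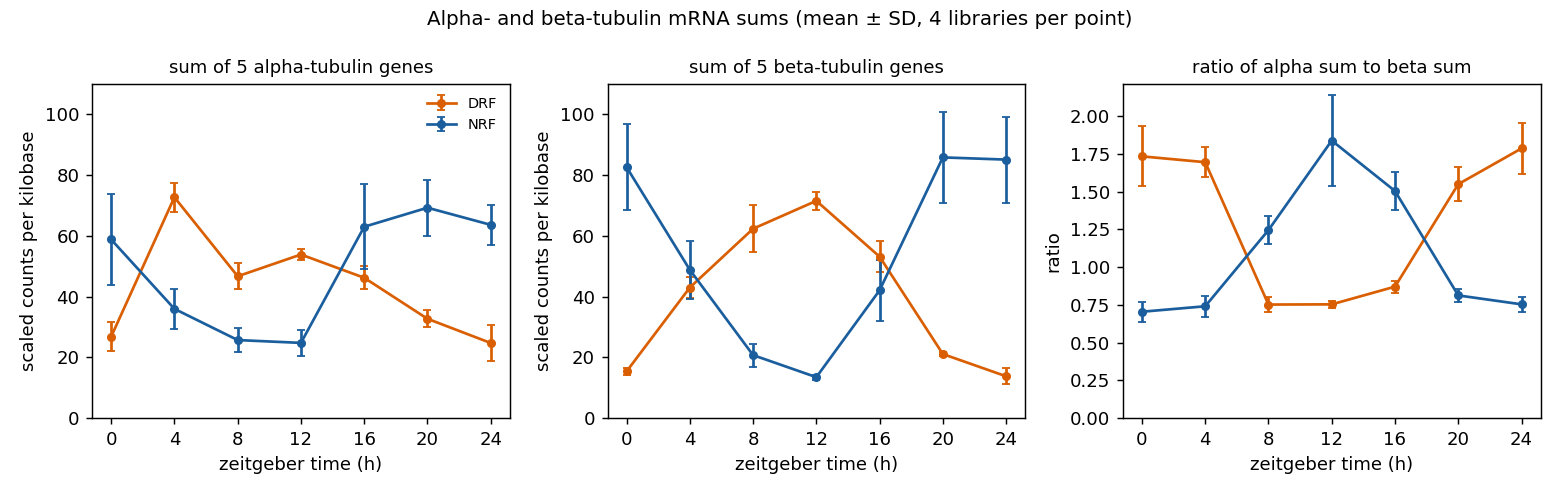
Summed scaled counts per kilobase of the 5 alpha-tubulin genes (left) and the 5 beta-tubulin genes (middle), and the ratio of the sums (right), against zeitgeber time in hours under DRF (orange) and NRF (blue); points are means and bars SD of 4 libraries. The ratio falls from 1.73 at ZT0 to 0.75 at ZT12 under DRF and lies at 1.84 at ZT12 under NRF.

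The genes outside the family whose levels followed Tubb2a most closely over the 56 libraries, by Pearson's r of log2 values, were Nfil3 (0.952), a bZIP repressor of the clock's output, Dnmt3b (0.943), a de novo DNA methyltransferase, Lgalsl (0.942), a galectin-like protein, Ppp1r3c (0.940), which targets protein phosphatase 1 to glycogen, and Ddc (0.939), which makes monoamines from aromatic amino acids. For Tubb2b they were Ppp1r3c (0.924), the pseudogene Tubb4b-ps1 (0.920), Chka (0.916), a choline kinase, Lgalsl (0.914) and Dnmt3b (0.913). Within the family, r with Tubb2a was 0.957 for Tubb2b, 0.958 for Tubb4b, 0.931 for Tuba4a, 0.863 for Tuba1a and Tuba1b, 0.797 for Tuba1c, 0.732 for Tubb6, 0.673 for Tubb5 and 0.661 for Tuba8. All points share the 2 regimens and the same libraries, so these values are a description.

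The other tubulins did not share one pattern. Of 10 listed, 7 were analysed, and 3 had rhythms that differed between regimens by the limma test, against 38.8% of all genes. Tubg1, the gamma-tubulin that nucleates microtubules, ranged from 8.17 to 12.7 under DRF and from 6.92 to 13.9 under NRF, with peaks at ZT7.54 and ZT19.4 (adjusted p of the difference 2.16e-08). Tubd1, a delta-tubulin of centrioles, peaked at ZT19.2 under NRF with an amplitude of 0.40, against 0.10 under DRF (adjusted p = 0.000136), and Tube1, the epsilon-tubulin, peaked at ZT4.42 under NRF with group means of at most 0.552 (adjusted p = 6.33e-05). Tubb1, the beta-tubulin of platelets, had fitted peaks at ZT6.00 and ZT5.04, ran between 1.65 and 3.97 in the group means, and did not pass the test of a difference (adjusted p = 0.697). Its level at ZT24 was below that at ZT0, 2.07 against 3.50 under DRF (adjusted p = 0.0332) and 1.87 against 3.92 under NRF (adjusted p = 0.00109), so that a 24-h phase is not established. The platelet and red cell marker sum also varied between groups (406 to 910), and its part in Tubb1 was not tested. The neuronal Tubb3 and Tubb4a and the gamma-tubulin Tubg2 had overall means of 0.0334, 0.163 and 0.0531 scaled counts and did not pass either.

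The 8 subunits of CCT, the chaperonin that folds tubulin and actin, all had rhythms that differed between the regimens, against 38.8% of all genes, and the fitted peaks of 7 of the 8 lay in the feeding half-day under both. Among all genes with such a difference, 30.2% had fitted peaks in the feeding half-day of both regimens and 33.6% in the fasting half-day of both. The leading ones were Tcp1, the alpha subunit of the complex (16.3 to 26.0 under NRF; adjusted p = 9.34e-11), Cct5 (58.0 to 83.1 under DRF and 56.1 to 82.8 under NRF; adjusted p = 1.49e-10) and Cct3 (32.1 to 54.3 and 30.7 to 60.7; adjusted p = 5.23e-10). All 8 had a rhythm under NRF and 4 of the 8 under DRF, with median amplitudes of 0.28 and 0.11. Tcp1, Cct3, Cct5 and Cct7 were the 4 that passed in both, while under DRF the rhythms of Cct2 (adjusted p = 0.782), Cct4 (0.812), Cct6a (0.108) and Cct8 (0.434) did not pass, and the fitted DRF peak of Cct4, at ZT13.8, lay outside the feeding half-day. Peaks of Tcp1 fell at ZT6.53 and ZT16.9, and those of Cct5 at ZT8.70 and ZT19.8, earlier after feeding began than the peaks of Tubb2a.

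**Figure D5:**
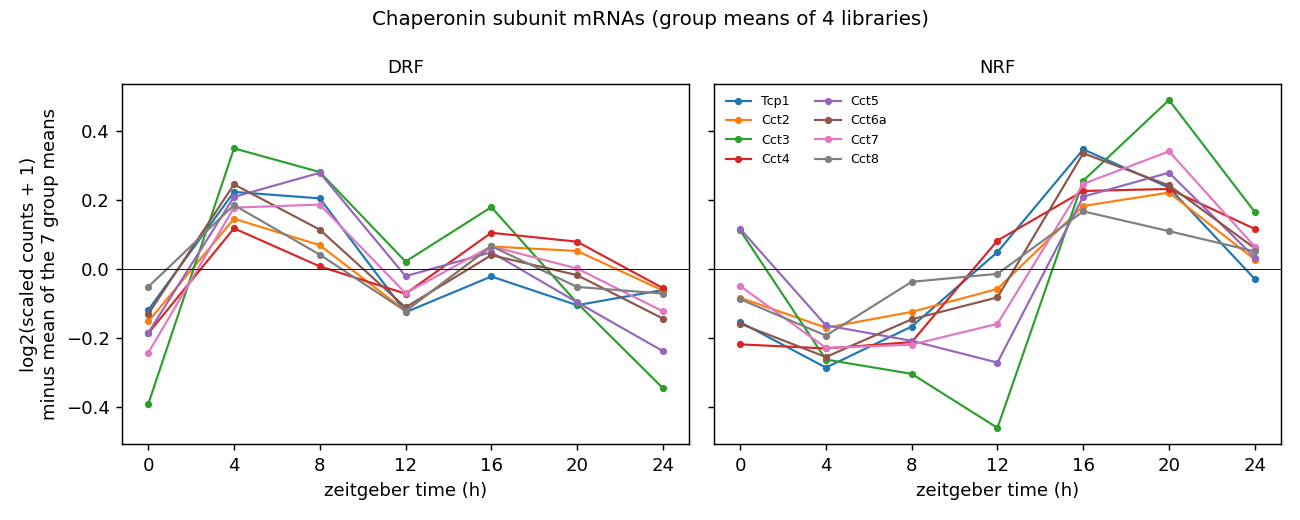
Group means of the 8 CCT chaperonin subunits on the log2 scale, each minus its own mean over the 7 times, against zeitgeber time in hours under DRF (left) and NRF (right). All 8 lines are highest at ZT4 or ZT8 under DRF and at ZT16 or ZT20 under NRF, and Cct3 has the widest range.

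The rest of the folding route moved less uniformly. Of the 6 prefoldin genes 5 had a rhythm under DRF and 1 under NRF, against 35.4% and 43.6% of all genes. Pfdn2 was the 1 whose rhythm differed, with peaks at ZT2.42 and ZT10.7 (adjusted p = 3.35e-07). Its highest group means stood at DRF ZT0 (26.0) and NRF ZT12 (25.3), when the feeding half-day began. Of the 7 tubulin folding cofactors 4 differed, against 38.8% of all genes. Tbcb, which binds alpha-tubulin, peaked at ZT7.80 and ZT0.84 (adjusted p = 5.28e-05), Tbce, its partner, at ZT8.78 and ZT2.69 (adjusted p = 0.00181), and Tbcc, which acts on the beta-tubulin nucleotide, at ZT2.95 under NRF (adjusted p = 0.00195). None of the 4 had its fitted peak in the feeding half-day of both regimens. The NRF peak of Tbcb, at ZT0.84, lay past the end of that half-day by less than its SE of 0.97 h.

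Of the 12 genes of the autoregulation route 7 had rhythms that differed, against 38.8% of all genes, and 4 did with the values as deposited. Fitted peaks of 4 of the 7 lay in the fasting half-day under both regimens and those of 1 in the feeding half-day, and not all of these rhythms passed in both regimens. Ttc5, which recognizes the nascent chain, had group means of 3.78 to 4.50 under DRF and 3.66 to 5.20 under NRF, with a rhythm under NRF (amplitude 0.22, peak at ZT4.37) and not one that passed under DRF (amplitude 0.03, adjusted p = 0.779; adjusted p of the difference 0.00372). Scaper, which links TTC5 to deadenylation, ranged from 72.6 at ZT4 to 138 at ZT24 under DRF and from 71.3 at ZT16 to 139.9 at ZT8 under NRF (adjusted p = 3.95e-07), so its lowest means fell at 4 h into feeding in both. Cnot1, the scaffold of CCR4-NOT, ranged from 106 at ZT4 to 166 at ZT20 under DRF and from 125 at ZT16 to 147 at ZT24 under NRF (adjusted p = 3.89e-07), and its rhythm under NRF did not pass (amplitude 0.06, adjusted p = 0.283). Cnot6, one of its deadenylases, peaked at ZT12.4 and ZT19.4 (adjusted p = 0.000147). For both Cnot1 (adjusted p = 0.0411 and 0.0355) and Cnot6 (0.0132 and 0.000807), ZT24 differed from ZT0 under DRF and NRF, so a 24-h cosine describes them in part.

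Genes that act on finished microtubules showed both directions, as did all genes. Rhythms differed for 38.8% of all genes. Of these, 30.2% had fitted peaks in the feeding half-day of both regimens and 33.6% in the fasting half-day of both. In the list of tubulin-modifying enzymes 9 of 20 differed, among them Ttll12, of the tyrosine ligase-like family (peaks at ZT9.16 and ZT22.9; adjusted p = 1.62e-08), the deglutamylase Agbl5 (ZT3.60 and ZT9.26; adjusted p = 4.05e-07) and the deacetylase Hdac6 (peak at ZT7.12 under NRF; adjusted p = 5.25e-07). Of 32 microtubule-associated proteins 16 differed, 5 with peaks in the feeding half-day of both regimens and 5 in the fasting half-day. Each is a share near that of all genes. Map7, which stabilizes microtubules and recruits kinesin, peaked at ZT11.1 and ZT23.5 (adjusted p = 4.28e-14) and Mapre1, a plus-end tracker, at ZT9.14 and ZT19.5 (adjusted p = 2.67e-08), close to the members, whereas Clasp2, a plus-end stabilizer, peaked at ZT19.1 and ZT7.96 (adjusted p = 1.74e-07). Of 10 genes of the gamma-tubulin ring complex 7 differed, led by Tubg1, Nedd1 (ZT17.9 under DRF, while its rhythm under NRF did not pass; adjusted p = 9.46e-06) and Tubgcp2 (ZT6.80 under NRF; adjusted p = 9.71e-05). Of 29 motor protein genes 17 differed, 4 with fitted peaks in the feeding half-day of both regimens and 6 in the fasting half-day, the latter a share near that of all genes. Kif1b, a plus-end kinesin, peaked at ZT19.0 and ZT8.16 (adjusted p = 2.63e-11), the dynein light intermediate chain Dync1li1 at ZT0.19 and ZT12.0 (adjusted p = 1.75e-09) and the kinesin Kif13b at ZT14.3 and ZT20.4 (adjusted p = 4.51e-08). In the actin cytoskeleton list 13 of 24 differed, 7 with feeding peaks and 1 with fasting peaks in both. Actb, the cytoplasmic beta-actin, ranged from 94.2 to 188 under DRF and from 109 to 206 under NRF (peaks at ZT9.80 and ZT23.8; adjusted p = 1.81e-11), Vcl, which anchors actin at adhesions, peaked at ZT8.75 and ZT21.4 (adjusted p = 2.83e-09), and Actn1, an actin crosslinker, at ZT3.65 and ZT9.90 (adjusted p = 7.92e-14).

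Promoters of 8 of the 10 members were matched in RefSeq (GRCm38.p6). The 250 bases before the start of Tubb2a, the member with the largest fitted amplitude, and of Tubb5, that with the smallest, are shown, with the cAMP response element TGACGTCA or the E-box CACGTG in capitals.
Tubb2a (chr13:34078009-34078258, minus strand): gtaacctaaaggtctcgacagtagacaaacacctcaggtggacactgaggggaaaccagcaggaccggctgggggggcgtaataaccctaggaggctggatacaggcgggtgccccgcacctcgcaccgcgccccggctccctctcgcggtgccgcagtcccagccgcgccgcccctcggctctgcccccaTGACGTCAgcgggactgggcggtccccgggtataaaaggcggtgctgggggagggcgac
Tubb5 (chr17:35838302-35838551, minus strand): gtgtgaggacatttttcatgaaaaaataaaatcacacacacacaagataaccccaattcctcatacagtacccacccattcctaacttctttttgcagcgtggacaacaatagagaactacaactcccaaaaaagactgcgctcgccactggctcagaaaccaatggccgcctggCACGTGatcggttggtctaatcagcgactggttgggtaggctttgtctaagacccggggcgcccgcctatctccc
Searched on both strands, TGACGTCA began 59 bases upstream of Tubb2a and occurred in no other matched member, against 1.55% of 32851 promoters. Its shorter core TGACG, which overlaps it by design, was also present in Tubb4b, Tuba1c and Tuba4a and in 17.8% of all promoters. CACGTG was present in Tubb5, 75 bases upstream, and in Tuba8, 207 bases upstream, and in 6.02% of all promoters. TATAAA stood 29 bases upstream of Tubb2a and in 12.4% of all promoters, and CCAAT occurred in Tubb4b, Tubb5, Tuba1a and Tuba1c and in 33.8% of all. A match is a description of letters and no measurement of binding.

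The deposited transcript scores, which are compressed toward high values and carry no recovered counts, gave each gene's main coding transcript its highest score. For Tubb2a-201 the mean scores were 23.8 at DRF ZT0 and 62.5 at DRF ZT12, against 62.6 at NRF ZT0 and 18.9 at NRF ZT12. Tubb2b-201 was at 0 in 4 libraries. The retained-intron transcript Tuba1c-202 did not follow Tuba1c-201: its mean scores were 21.0 and 15.8 at DRF ZT0 and ZT12 and 9.72 and 13.5 at NRF ZT0 and ZT12, where those of Tuba1c-201 were 41.3, 52.4, 51.3 and 39.5.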

How the data were processed

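Liver RNA-seq of 56 libraries was analysed. Libraries were made from ribosome-depleted, strand-specific RNA per the protocol text, although the labels' molecule field names polyA RNA. The deposited tables hold a score per gene and per transcript that the authors computed. The submitters' processing notes name CASAVA 1.8, featureCounts 1.5.0-p3 and GRCm38.p6, and the aligner is not given in the sources used here. Each deposited gene score, multiplied by exon length (GENCODE vM21), followed a logarithm of a whole count. This was inverted per library, and in genes not used to fit it 99.13% of values up to 10 counts and 96.61% of values of 100 to 1000 counts fell within 0.05 of a whole number. Recovered totals of 298244000 to 668179000 counts are high for read counts, so a recovered count is a step of the score and was not shown to be 1 read. Of 25415 rows, 23932 were used. Tubb6 required a searched length (1757 in place of 2437 bases), and its scale rests on it. The plan had assumed TPM, and the tests planned on log2 values were kept.

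R 4.3.3 and limma 3.58.1 fitted log2(scaled counts + 1) over all genes and 56 libraries, with an empirical Bayes trend and Benjamini-Hochberg adjustment at 0.05: a 24-h cosine per regimen, and 14 group means for differences at any time, at matched feeding hours and between ZT24 and ZT0. The cosine fit was tested on simulated data, and the tests on group means were not scored there. Named genes were all members, Ttc5, the other tubulins, up to 3 genes a list with the smallest adjusted p for the rhythm difference, and the 5 genes most correlated with Tubb2a and with Tubb2b; Gm49450, Tubb4b-ps1, Stk16, Gm15856, Cct4 and Tuba1c-202 were chosen after values were seen. Members and lists were chosen with earlier results of these data known. No 2 replicates held identical values. Of the pathway lists, 7 genes were not analysed here. Circular RNA values were not used here.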

Additional observations from a re-analysis of the deposited data

Results flagged for a closer look

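In 9 of 140 member groups of 4 libraries, 1 library stood apart from the other 3 by a gap test (Dixon's, at 95%), where about 1 in 20 groups is flagged by chance. Library NRF ZT20 replicate 1 was low for both Tubb2a (63.2 against 91.6 to 97.2) and Tubb2b (7.35 against 11.1 to 11.4). Tubb2b was listed at 0 in DRF ZT20 replicate 3 (others 1.09 to 1.27) and at 0.440 in NRF ZT12 replicate 2, where the other 3 were listed at 0. Tuba4a stood at 33.1 in NRF ZT16 replicate 4 and at 9.42 in DRF ZT20 replicate 4 (others 7.62 to 7.83), and Tuba1a was also highest in the latter library, at 5.24 (others 4.87 to 4.92). Tuba1b stood at 16.8 in NRF ZT12 replicate 3 (others 11.3 to 11.9) and Tuba8 at 1.399 in NRF ZT4 replicate 4 (others 2.93 to 3.04).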

How the results depend on the processing

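Rhythms in each regimen, their difference and a difference at any time were called for the 10 members under each alternative run for them, including the exact rank test, the values as deposited, and each library left out in turn (10 to 10). By the rank test 32.6% of all genes had a rhythm under DRF and 34.1% under NRF. The count for daily means stayed at 1 and that for ZT24 against ZT0 under DRF at 0. With the replicate block, the counts of members were 10, 10, 10, 1, 10, 4, 0 and 0 for the 8 tests, and the pairing changed no count. Deviations correlated with a median r of 0.008 for same-numbered and -0.002 for other pairs, so the libraries share only a number. The feeding-matched count was 4 and became 8 with the values as deposited and 7 with the exon-length trend removed, and ran from 4 to 7 with single libraries left out; it was 7 without NRF ZT8 replicate 3, NRF ZT16 replicate 4, NRF ZT20 replicate 1 or NRF ZT24 replicate 2. With the values as deposited, ZT24 against ZT0 under NRF was called for 1 member and the autoregulation list had 4 calls in place of 7. The prefoldin count ran from 1 to 2 over single libraries left out, with 2 without DRF ZT8 replicate 2. The CCT count was at least 6 in every alternative. Apart from the rank test, shares of all genes called in the alternatives are not given here. Phase shifts moved by more than their standard error in 9 of 661 refits of single members, mostly with the values as deposited, where Tubb5 had 9.31 h. The causes were not tested. The score hides depth, and near copies limit Tubb2b, Tuba1a, Tuba1b and Tuba1c, as described.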
